A study of Mus musculus with 50 samples.

Results

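The genes of the complement and coagulation cascades were followed across mouse liver and liver tumours. Members were the 43 rows of the count table whose gene symbol is on a list of complement components, clotting factors, their inhibitors and the fibrinolytic enzymes, of 45792 rows in all. Of these, 40 genes are mainly transcribed by hepatocytes, and C1qa, C1qb and C1qc are mainly transcribed by macrophages and were kept apart. Each symbol matched 1 row and each gene was measured in every comparison. RNA-seq (sequencing of messenger RNA as complementary DNA) had been performed on 50 tissue samples of C3H/He mice, an inbred strain prone to liver tumours, with a harvest time of 48 weeks. The mice ate a control diet or the ALIOS diet, a high fat, trans-fat rich Western type diet given with sugared drinking water. There were 12 non-tumour livers of control fed mice, 11 non-tumour livers of ALIOS fed mice, 13 liver tumours of ALIOS fed mice and 1 liver tumour of a control fed mouse, none labelled with a carcinogen and called spontaneous here. A further 13 tumours came from mice given DEN (diethylnitrosamine, a liver carcinogen), 8 ALIOS fed and 5 control fed. No non-tumour liver of a DEN mouse was among the samples, so a DEN tumour was set against livers of mice without DEN, and carcinogen and tumour cannot be told apart in that comparison. The labels tie no tumour to the mouse that carried it and give neither the DEN dose nor its time, and tumours may share a mouse with each other or with a liver.

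Complement is a cascade of plasma proteases. The classical pathway starts when C1q binds antibody or debris and activates C1r and C1s. The lectin pathway starts when mannose-binding lectins bind sugars and activate the MASP proteases, and both then cleave C4 and C2. All routes meet at C3, are amplified by factor B, and end with the terminal components C5 to C9, which build the membrane attack complex. Coagulation is a second protease cascade that ends when thrombin turns fibrinogen into fibrin, and plasmin, made from plasminogen, dissolves it again. Hepatocytes secrete most of these proteins into plasma, and Kupffer cells and other macrophages secrete C1q.

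Between 23798251 and 45751398 reads were counted per library. Values are given as counts per 1000000 counted reads (CPM) after TMM scaling of the library sizes. The lowest count of a hepatocyte-made member outside T1 was 36 reads, for C9 in T24, so counting error was small against the spread between mice for most members. Several libraries stood apart. The library labelled T1, a tumour of an ALIOS fed mouse, held 45285 CPM of 8 kidney marker genes, against 0.469 to 23.7 CPM in the other tumours of that group, and 38 of the 40 hepatocyte-made members lay below every other tumour of the group. It was left out below, which leaves 12 spontaneous tumours of ALIOS fed mice, and values with it are in the closing section. Of the DEN tumours of ALIOS fed mice, T24 had the lowest value of 24 of the 43 members and the highest value of all 3 C1q genes. Control liver N5 had the highest value of 23 members, and 71272 CPM of the acute phase genes Saa1, Saa2, Hp, Orm1, Lcn2 and Apcs, where the median control liver had 6127. In ALIOS liver N17, 29 members had their lowest value of the group. Counts of called genes are given with and without these libraries. The labels do not say which samples came from separate mice, so p-values measure the spread between these samples. In bulk tissue, fewer cells of a type and less RNA per cell cannot be told apart.

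Together the 43 genes took 3.44% to 9.42% of all counted reads in control livers, and 3.51% to 7.12% in spontaneous tumours of ALIOS fed mice. Levels of different genes were compared per kilobase of exon. In control livers the most abundant was Ahsg, which encodes fetuin-A, a plasma glycoprotein that keeps calcium phosphate soluble, with a median of 3251 CPM per kb. The fibrinogen chains Fgg, Fga and Fgb followed with 1559, 1196 and 1155 CPM per kb, in the range of C3, the central complement component, with 1161 CPM per kb. Their ranges over 12 livers overlapped, so the order among these 4 genes is not firm. Thrombin is made from prothrombin, encoded by F2, which stood at 334 CPM per kb. The lowest hepatocyte-made members were Pros1 (protein S), Masp1 and Klkb1 (plasma prekallikrein), with 11.8, 9.74 and 6.66 CPM per kb. The length used holds every annotated exon base of a gene, 9833 for Masp1, so the place of Masp1 depends on that length. Before the division its median was 95.8 CPM, above C2 with 76.0 and Pros1 with 48.2 CPM. Reads of Klkb1 are uncertain where its exons overlap those of the neighbour Cyp4v3 on the same strand. In Gencode M21 a second entry named Klkb1, also on that strand, shares most of the exon bases of Klkb1. No counted reads were found for that entry, which may also mean that it has no row in the count table. If it was in the annotation used for counting, reads on those shared bases may be left out of the Klkb1 count. The low level of Klkb1 and its place as the lowest member are therefore uncertain. The C1q genes lay at 16.4 to 36.7 CPM per kb.

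**Figure D1:**
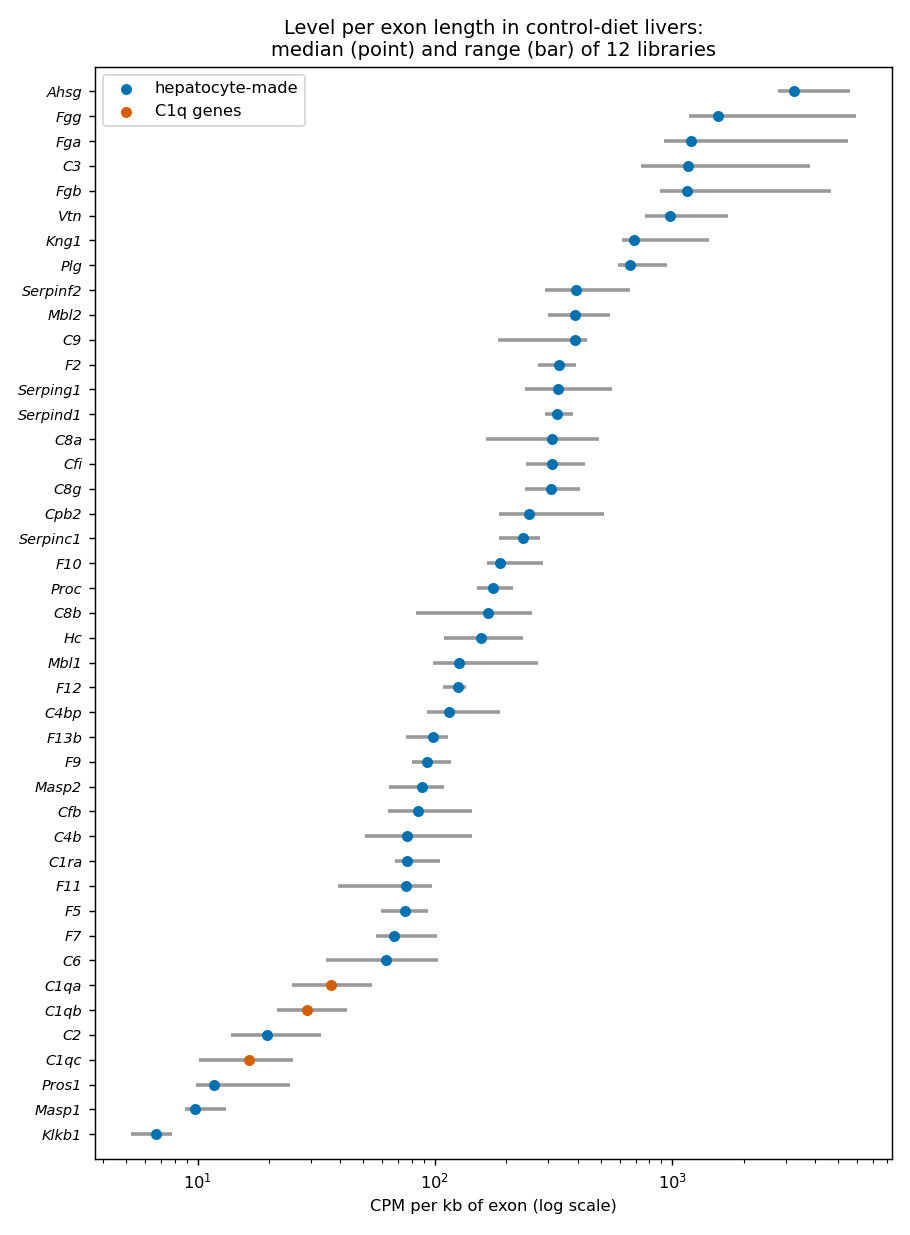
Level of each gene in the 12 control diet livers, as CPM per kilobase of exon on a log axis. Points are medians and bars run from the lowest to the highest library, from 6.66 for Klkb1 to 3251 for Ahsg at the median, with the C1q genes in the lowest part of the range.

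Promoter sequence bears on genes that are transcribed together, so the bases upstream of the start were read for the members that RefSeq lists, 33 of 43 with 34 promoters on GRCm38.p6. The 10 others were C1qa, Masp1, C4b, Kng1, Cfb, Plg, Cfi, Proc, C2 and Serping1. Motifs were searched on both strands in the 250 bases before the start. An HNF1 pattern (GTTAAT, any base, then ATT, with N for any base in the other patterns) was found in 3 of 34 member promoters, or 8.82%, and in 0.371% of all 32851 promoters. A C/EBP pattern (TTGCNNAA) was found in 23.5% of member promoters and 9.56% of all, and a forkhead pattern (TGTTTNC) in 32.4% and 17.8%. The CCAAT box (CCAAT) was found in 17.6% of member promoters and 33.9% of all. A STAT pattern (TTCNNNGAA) was found in 17.6% and 7.02%, and 2 of its 6 members were the fibrinogen genes Fga and Fgb. A match of letters is a description and does not show that a factor binds. The genes below were chosen because Ahsg is the member that rose most in tumours, C8b, Mbl1 and C9 are among those that fell most, and F13b, Hc and C4bp share the HNF1 pattern. Each line gives 100 bases, 5′ to 3′ towards the gene, which lie in no exon of the Gencode annotation, with the matches in capitals. The last base printed is the base before the RefSeq start in Ahsg, C8b and Mbl1. It lies 6 bases upstream of that start in F13b, 15 in C4bp, 20 in C9 and 27 in Hc. The printed bases of Ahsg lie inside the gene as annotated by Gencode, which starts further upstream, at 22891277, so the 2 starts differ.
Ahsg: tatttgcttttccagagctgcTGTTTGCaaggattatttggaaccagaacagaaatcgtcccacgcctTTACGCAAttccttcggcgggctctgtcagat
C8b: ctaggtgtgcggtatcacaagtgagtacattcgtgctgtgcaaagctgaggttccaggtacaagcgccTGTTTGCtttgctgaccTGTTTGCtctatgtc
Mbl1: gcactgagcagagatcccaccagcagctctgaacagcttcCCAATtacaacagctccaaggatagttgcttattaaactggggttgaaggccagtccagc
C9: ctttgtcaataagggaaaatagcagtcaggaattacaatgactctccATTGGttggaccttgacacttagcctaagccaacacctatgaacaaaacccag
F13b: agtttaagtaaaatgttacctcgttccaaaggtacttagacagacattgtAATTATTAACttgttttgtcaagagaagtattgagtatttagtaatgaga
Hc: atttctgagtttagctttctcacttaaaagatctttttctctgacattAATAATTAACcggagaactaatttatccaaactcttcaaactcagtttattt
C4bp: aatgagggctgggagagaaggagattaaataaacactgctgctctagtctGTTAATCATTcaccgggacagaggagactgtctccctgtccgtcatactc
The capitals are a forkhead and a C/EBP match in Ahsg (chr16:22891915-22892014, plus strand), and 2 forkhead matches in C8b (chr4:104766217-104766316, plus strand). They are a CCAAT box in Mbl1 (chr14:41151356-41151455, plus strand) and in C9 (chr15:6445227-6445326, plus strand). In the other 3 they are HNF1 matches, in F13b (chr1:139501602-139501701, plus strand), Hc (chr2:35061439-35061538, minus strand) and C4bp (chr1:130661633-130661732, minus strand). Matches on the other strand appear as their reverse complement, as in C9, F13b and Hc. Of the genes with the HNF1 pattern, F13b fell in all 3 tumour comparisons described below, C4bp in 1 and Hc in none.

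The first comparison asked what the ALIOS diet changed in liver outside tumours. The 3 C1q genes rose, and no hepatocyte-made member passed the test. These genes lie side by side on the minus strand of chromosome 4, C1qb at 136880129 to 136886187, C1qc at 136889804 to 136893065 and C1qa at 136895917 to 136898803, and encode the A, B and C chains of one hexameric protein. C1qa had a lowest, median and highest value of 25.9, 38.1 and 56.4 CPM in control livers and of 34.7, 62.4 and 127 CPM in ALIOS livers. For C1qb the values were 23.5, 31.5 and 46.2 CPM and 28.6, 55.5 and 111 CPM, and for C1qc 19.6, 31.7 and 48.8 CPM and 27.7, 50.4 and 99.8 CPM. In each case the ranges overlapped, and N19 was the highest and N13 the lowest ALIOS liver. The log2 fold change was 0.83 ± 0.17 (edgeR adjusted p = 0.00579) for C1qa with its standard error. It was 0.90 ± 0.18 (edgeR adjusted p = 0.0052) for C1qb and 0.80 ± 0.19 (edgeR adjusted p = 0.00984) for C1qc. So 3 of 43 members were called higher and 0 lower, where 6.73% of the 13723 genes tested were called higher, 4.51% lower and 11.2% either way. The calls held when any 1 of the 23 livers was left out, and were lost when all 5 groups with 2 or more libraries were fitted together, where the smallest adjusted p of a member was 0.11.

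**Figure D2:**
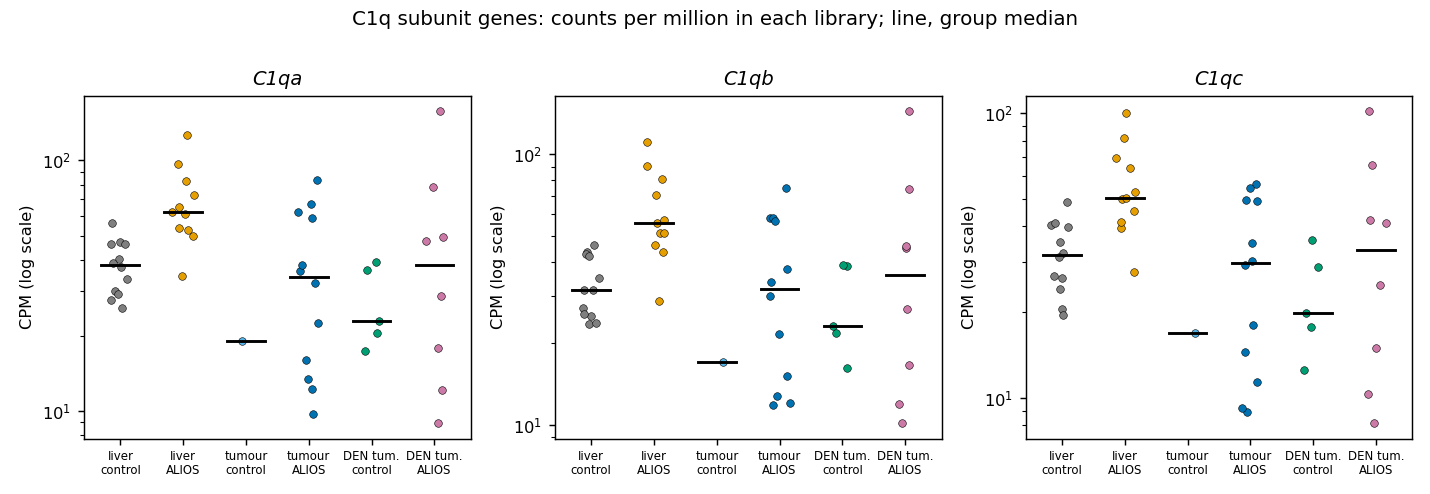
CPM (log axis) of C1qa, C1qb and C1qc in each library of the 6 groups, with T1 left out. Black lines are group medians, and the ALIOS livers lie above the control livers at the median with overlapping ranges, while both ALIOS tumour groups spread over a wider range than the livers.

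Markers of macrophages moved with C1q. Of 12 macrophage marker genes, 8 rose on the ALIOS diet and none fell, the median of their log2 fold changes being 0.78, and none was at 0 in any group. Their summed level was 326 to 814 CPM in control livers and 513 to 1422 CPM in ALIOS livers. Across livers the mean log2 CPM of the 3 C1q genes followed the mean log2 CPM of these markers, with a Pearson r of 0.91 and a Spearman rho of 0.90 over the 12 control livers. The values were 0.96 and 0.96 over the 11 ALIOS livers. Without the 2 livers farthest from the median marker level, r was 0.85 in control and 0.94 in ALIOS livers. In tumours r was 0.96 (rho 0.94) over the 12 spontaneous tumours and 0.97 (rho 0.98) over the 8 DEN tumours of ALIOS fed mice, and 0.94 and 0.96 without the 2 farthest libraries. These are descriptions without a test, and both axes share the scaling of each library. The mean log2 level of C1q minus that of the markers was 0.999 ± 0.195 (SD, n = 12) in control livers and 1.16 ± 0.141 (SD, n = 11) in ALIOS livers, a difference that was not tested. The part that the number of macrophages had in the C1q result was not tested.

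**Figure D3:**
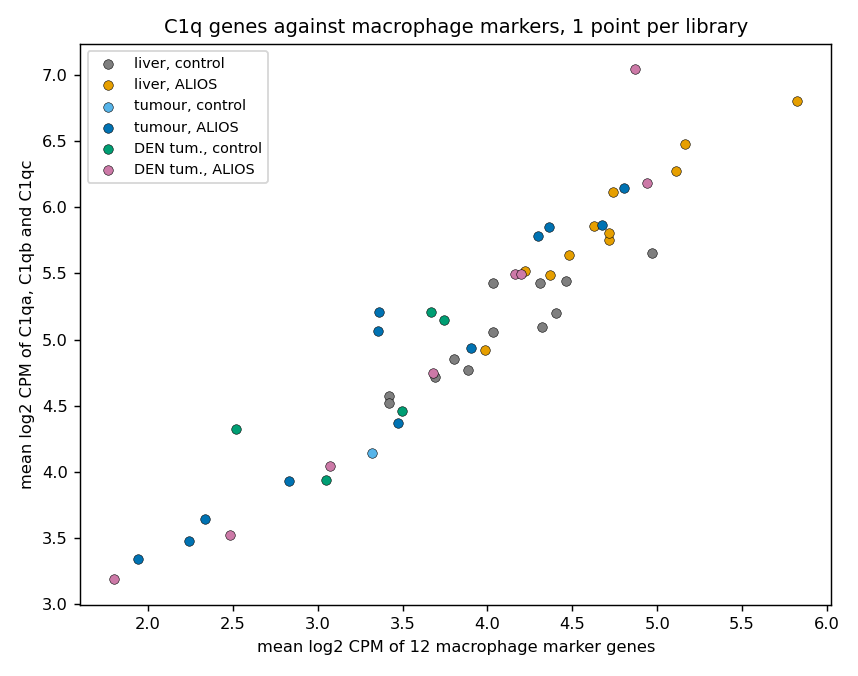
Mean log2 CPM of C1qa, C1qb and C1qc against that of 12 macrophage marker genes, 1 point per library, with T1 left out and colours for the 6 groups. The points rise together in the 4 groups of 8 or more libraries, and the control livers sit over a narrower range than the tumours.

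Among the hepatocyte-made members, 35 of 40 had a point estimate under 0 on the ALIOS diet, with a median log2 fold change of -0.12 against -0.02 over all genes tested, but none passed the test. The largest differences were in fibrinogen. Fgb, the beta chain, had 3394, 4401 and 17705 CPM in control livers and 2206, 3811 and 7977 CPM in ALIOS livers, with a log2 fold change of -0.49 ± 0.27 (edgeR adjusted p = 0.229). The control group was stretched upwards by N5, whose Fgb value was the 17705 CPM, and without N5 the log2 fold change was -0.19 ± 0.20 (edgeR adjusted p = 0.569). C3 had 3781, 5969 and 19480.4 CPM in control and 3716, 6489 and 9883 CPM in ALIOS livers, with N5 again the highest control liver, and a log2 fold change of -0.25 ± 0.25 (edgeR adjusted p = 0.537). C6, of the membrane attack complex, gave -0.40 ± 0.17 (edgeR adjusted p = 0.132), and Cfi, the protease that inactivates C3b, gave -0.22 ± 0.11 (edgeR adjusted p = 0.159). C6 and Cfi were the only hepatocyte-made members with an unadjusted p under 0.05. F2 gave -0.03 ± 0.07 and F5, the cofactor of activated factor X, gave -0.02 ± 0.08.

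The second question was how tumours differed from liver. On the ALIOS diet 26 of 43 members fell in the 12 spontaneous tumours and 3 rose, where 25.9% of the 14183 genes tested were called lower, 26.9% higher and 52.8% either way. The 8 DEN tumours of ALIOS fed mice had 18 members lower and 4 higher than ALIOS livers, where 19.8% of 14434 genes were called lower, 27.7% higher and 47.5% either way. The 5 DEN tumours of control fed mice had 20 members lower and 6 higher than control livers, with 24.4% of 14731 genes called lower, 27.3% higher and 51.7% either way. The share of members that fell was thus above the share of all genes in each of the 3, and the share that rose was below it. The median log2 fold change of the 40 hepatocyte-made members was -0.42, -0.40 and -0.44, against medians over all genes of 0.01, 0.08 and 0.03. The spontaneous tumours and ALIOS livers share no library with the comparison of DEN tumours on the control diet. Of the 26 members that fell in the former, 20 also fell in the latter, which is 76.9% of one list and 100% of the other, and all 3 that rose in the former were among the 6 of the latter. Over all genes, 25.9% and 24.4% were called lower in these comparisons and 26.9% and 27.3% higher. The share of all genes called in both was not counted, so the overlap is not read as particular to the members. Without T24, 23 members fell and 5 rose in the DEN tumours of ALIOS fed mice. Without N17 the counts were 25 and 3 in spontaneous tumours and 19 and 3 in DEN tumours of ALIOS fed mice, and without N5 they were 19 and 6 in DEN tumours of control fed mice.

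**Figure D4:**
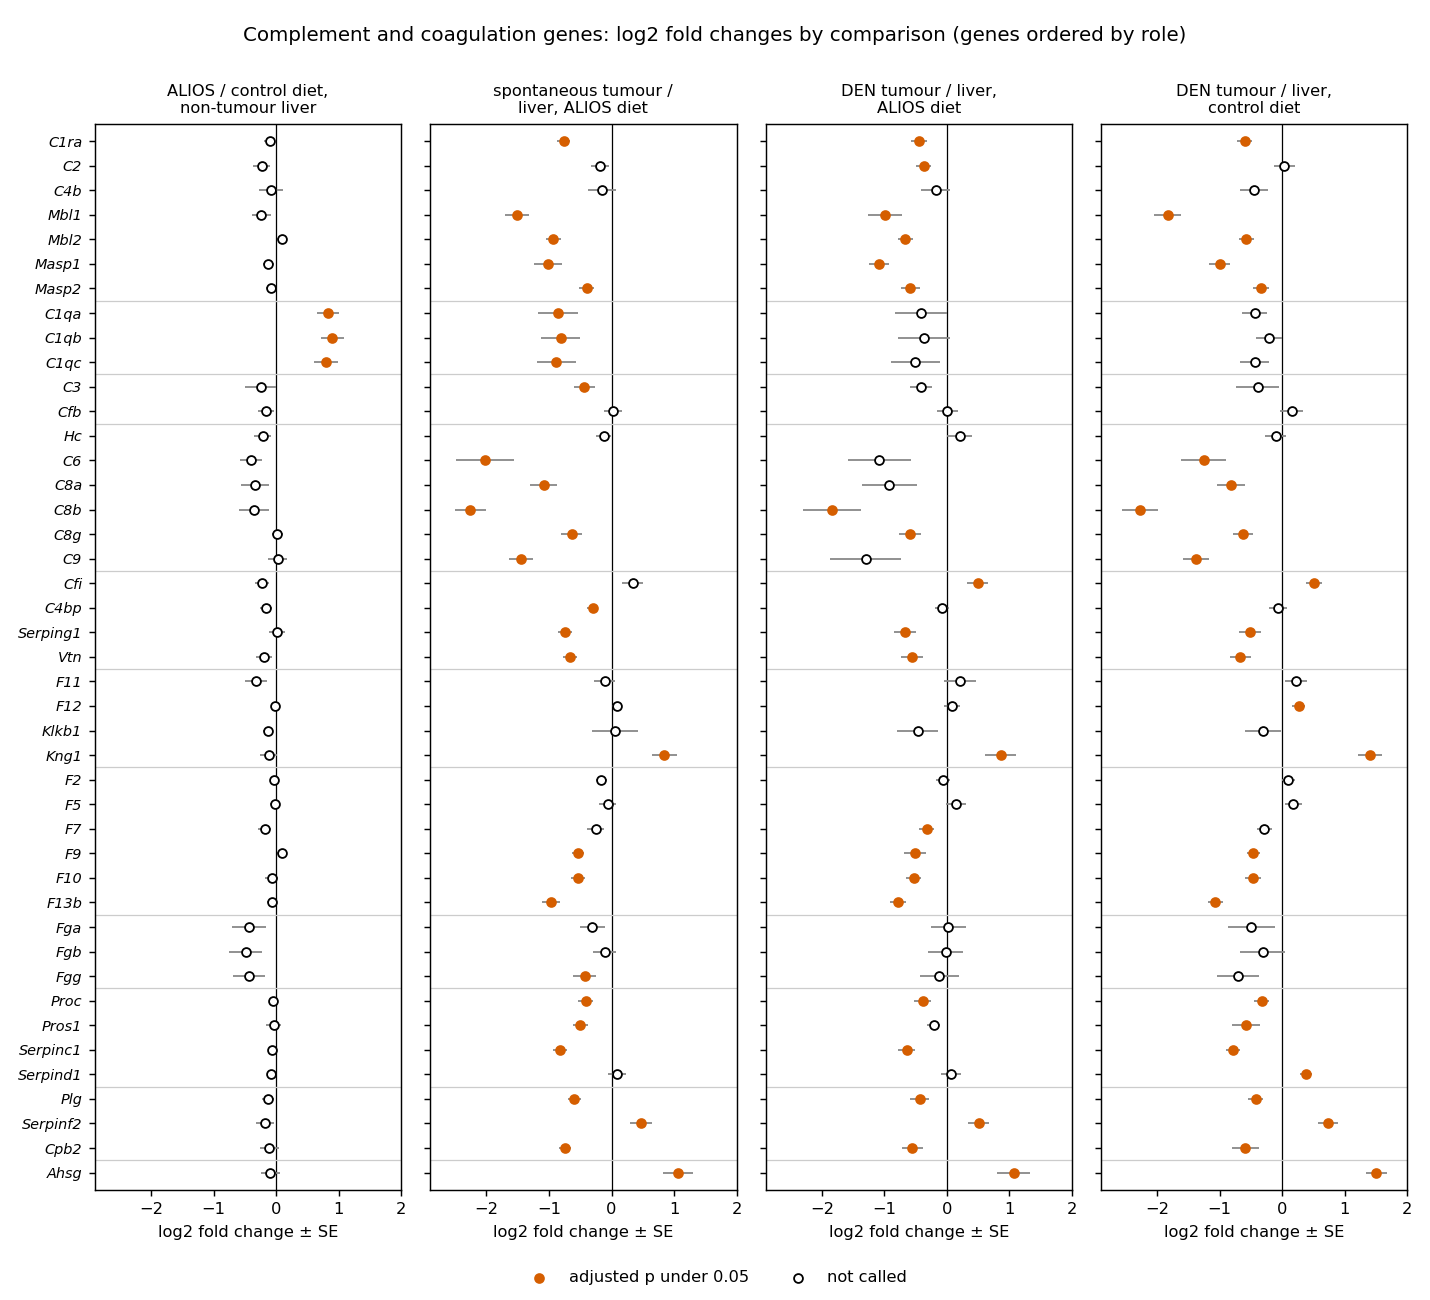
Log2 fold change with its standard error (bars) of all 43 genes in 4 comparisons, ordered by role from the complement start at the top to fetuin-A at the bottom. Filled points have an edgeR adjusted p under 0.05. Most hepatocyte-made genes sit near 0 for the diet and left of 0 in the 3 tumour comparisons, and Kng1, Serpinf2 and Ahsg sit to the right in each.

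In the lectin and classical start of complement, 5 of 7 members fell in spontaneous tumours, 6 in DEN tumours of ALIOS fed mice and 5 in those of control fed mice. Mbl1 (ENSMUSG00000037780.2, chr14:41151458-41159601, plus strand), a mannose-binding lectin, fell most of these in spontaneous tumours and in DEN tumours of control fed mice, and Masp1 in DEN tumours of ALIOS fed mice. C2 was the sixth member to fall in DEN tumours of ALIOS fed mice (-0.37 ± 0.12, edgeR adjusted p = 0.0129). That C2 call was lost with library totals in place of TMM (edgeR adjusted p = 0.108). The values of Mbl1 were 127, 196 and 265 CPM in ALIOS livers and 40.3, 55.8 and 118 CPM in spontaneous tumours, groups that did not overlap. The log2 fold change was -1.51 ± 0.20 (edgeR adjusted p = 1.61e-06). The 8 DEN tumours of ALIOS fed mice had 54.4, 60.7 and 205 CPM and overlapped the livers, with -0.99 ± 0.27 (edgeR adjusted p = 0.00509). The 5 DEN tumours of control fed mice had 47.2, 52.00, 54.2, 73.4 and 73.9 CPM, below all 12 control livers at 154, 199 and 425 CPM, with -1.83 ± 0.22 (edgeR adjusted p = 1.4e-06).

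The second mannose-binding lectin, Mbl2, fell less. It had 389.6, 455 and 594 CPM in ALIOS livers, 156, 229.6 and 338 CPM in spontaneous tumours and 203, 261 and 402 CPM in DEN tumours of ALIOS fed mice. The spontaneous tumours lay below every liver, and the highest DEN tumour just reached the lowest. The log2 fold changes were -0.93 ± 0.12 (edgeR adjusted p = 1.38e-06) in spontaneous tumours and -0.66 ± 0.12 (edgeR adjusted p = 0.00019) in DEN tumours. In control fed mice, DEN tumours with 242, 268, 274, 287 and 313 CPM lay below livers with 326, 425 and 595 CPM, at -0.58 ± 0.12 (edgeR adjusted p = 0.000443). Masp1, a lectin pathway protease, had 73.8, 91.1 and 117 CPM in ALIOS livers, 15.1, 39.6 and 89.5 CPM in spontaneous tumours and 21.1, 42.96 and 59.6 CPM in DEN tumours, the last below every liver. Its log2 fold changes were -1.02 ± 0.22 (edgeR adjusted p = 0.000459) and -1.09 ± 0.16 (edgeR adjusted p = 1.99e-05). On the control diet Masp1 went from 87.4, 95.8 and 129.6 CPM in livers to 30.9, 33.1, 49.7, 55.5 and 73.6 CPM in DEN tumours (-1.001 ± 0.17, edgeR adjusted p = 5.3e-05). C1ra, which encodes the C1r protease, fell in all 3 comparisons, with log2 fold changes of -0.77, -0.45 and -0.60. The C1ra call in DEN tumours of ALIOS fed mice was lost with library totals in place of TMM (edgeR adjusted p = 0.125). Masp2, the second lectin pathway protease, also fell in all 3, with -0.40, -0.58 and -0.34. The last of these calls was lost without T17 (-0.27 ± 0.13, edgeR adjusted p = 0.0925) or T18 (-0.28 ± 0.13, edgeR adjusted p = 0.0845). It was also lost with library totals in place of TMM and with 1 fit over all 5 groups, and held in 7 of 11 alternatives. The Masp2 call in spontaneous tumours was lost with library totals in place of TMM and with T1 included. Reads of Masp2 cannot be told apart with certainty from those of Tardbp on the opposite strand, which shares exon bases, because the strand setting of the counting is not stated.

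C4b, the complement C4 that both routes cleave, was not called in any comparison. Its values were 219, 438 and 687 CPM in ALIOS livers and 124, 389.7 and 645 CPM in spontaneous tumours (-0.15 ± 0.22, edgeR adjusted p = 0.599). They were 241, 256, 358, 368 and 393 CPM in DEN tumours and 289, 436 and 814 CPM in livers on the control diet, with -0.46 ± 0.22 (edgeR adjusted p = 0.0947). The DEN tumours of ALIOS fed mice had 160.1, 367 and 629 CPM (-0.18 ± 0.23, edgeR adjusted p = 0.544). The ranges overlapped in each case. C4b has a near copy, C4a, so the split of reads between them is uncertain, and the same holds for C1ra and its copy C1rb.

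The terminal components held the member that fell furthest, with 5 of 6 lower in spontaneous tumours, 2 of 6 in DEN tumours of ALIOS fed mice and 5 of 6 in those of control fed mice. C8b (ENSMUSG00000029656.11, chr4:104766317-104804548, plus strand), the beta chain of C8, had the largest fall of the 43 in each of the 3 tumour comparisons. ALIOS livers had 111, 368 and 519 CPM, spontaneous tumours 41.99, 58.02 and 119.5 CPM and DEN tumours 13.2, 50.5 and 275 CPM. At the median the spontaneous tumours were far below the livers, although the highest tumour reached the lowest liver. The log2 fold changes were -2.26 ± 0.25 (edgeR adjusted p = 3.19e-07) and -1.84 ± 0.47 (edgeR adjusted p = 0.00349). The 5 DEN tumours of control fed mice had 54.5, 64.5, 71.7, 72.04 and 139.8 CPM, all under the livers' 213, 428 and 652 CPM, with -2.28 ± 0.29 (edgeR adjusted p = 2.57e-06). The neighbouring C8a, the alpha chain, fell in spontaneous tumours (-1.09 ± 0.22, edgeR adjusted p = 0.000267) and in DEN tumours of control fed mice (-0.82 ± 0.22, edgeR adjusted p = 0.00387). The latter call was lost with 1 fit over all 5 groups (edgeR adjusted p = 0.0566). In DEN tumours of ALIOS fed mice C8a gave -0.92 ± 0.44 (edgeR adjusted p = 0.0893), and without T24 -0.73 ± 0.29 (edgeR adjusted p = 0.038). C8g, the gamma chain, fell in all 3, with log2 fold changes of -0.64, -0.59 and -0.63.

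C9 (chr15:6445327-6498751), whose protein forms the ring of the membrane pore, had 604, 1018 and 1330.4 CPM in ALIOS livers and 115, 332 and 561 CPM in spontaneous tumours. No tumour reached a liver, and the log2 fold change was -1.45 ± 0.19 (edgeR adjusted p = 1.63e-06). In DEN tumours of ALIOS fed mice it had 0.639, 346 and 709.6 CPM, the lowest being T24 with 36 reads. With T24 it was not called (-1.30 ± 0.56, edgeR adjusted p = 0.0628), and without T24 it fell, at -1.11 ± 0.24 (edgeR adjusted p = 0.000897). The control fed DEN tumours had 230.3, 321, 351, 383 and 419 CPM, below livers with 470.1, 997 and 1122 CPM, at -1.38 ± 0.20 (edgeR adjusted p = 1.55e-05). C6 was the most scattered member of the spontaneous tumours, with 2.85, 32.7 and 134 CPM against 91.9, 175 and 252 CPM in ALIOS livers (-2.02 ± 0.47, edgeR adjusted p = 0.000887). Its DEN tumour values were 8.27, 43.5 and 258 CPM on the ALIOS diet (-1.08 ± 0.50, edgeR adjusted p = 0.082). On the control diet they were 24.2, 58.3, 63.5, 106 and 201 CPM against 124, 221 and 366 CPM in livers (-1.26 ± 0.35, edgeR adjusted p = 0.00601), and the ranges overlapped. That C6 call was lost with 1 fit over all 5 groups (edgeR adjusted p = 0.084). Hc, which encodes C5, was the exception of the group. It had 592, 924 and 1118 CPM in ALIOS livers, 648, 772 and 1249.6 CPM in spontaneous tumours and 350.1, 1121 and 1342 CPM in DEN tumours, and the log2 fold changes of -0.13 ± 0.12, 0.20 ± 0.20 and, on the control diet, -0.11 ± 0.17 did not pass the test (edgeR adjusted p of 0.4, 0.427 and 0.618).

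**Figure D5:**
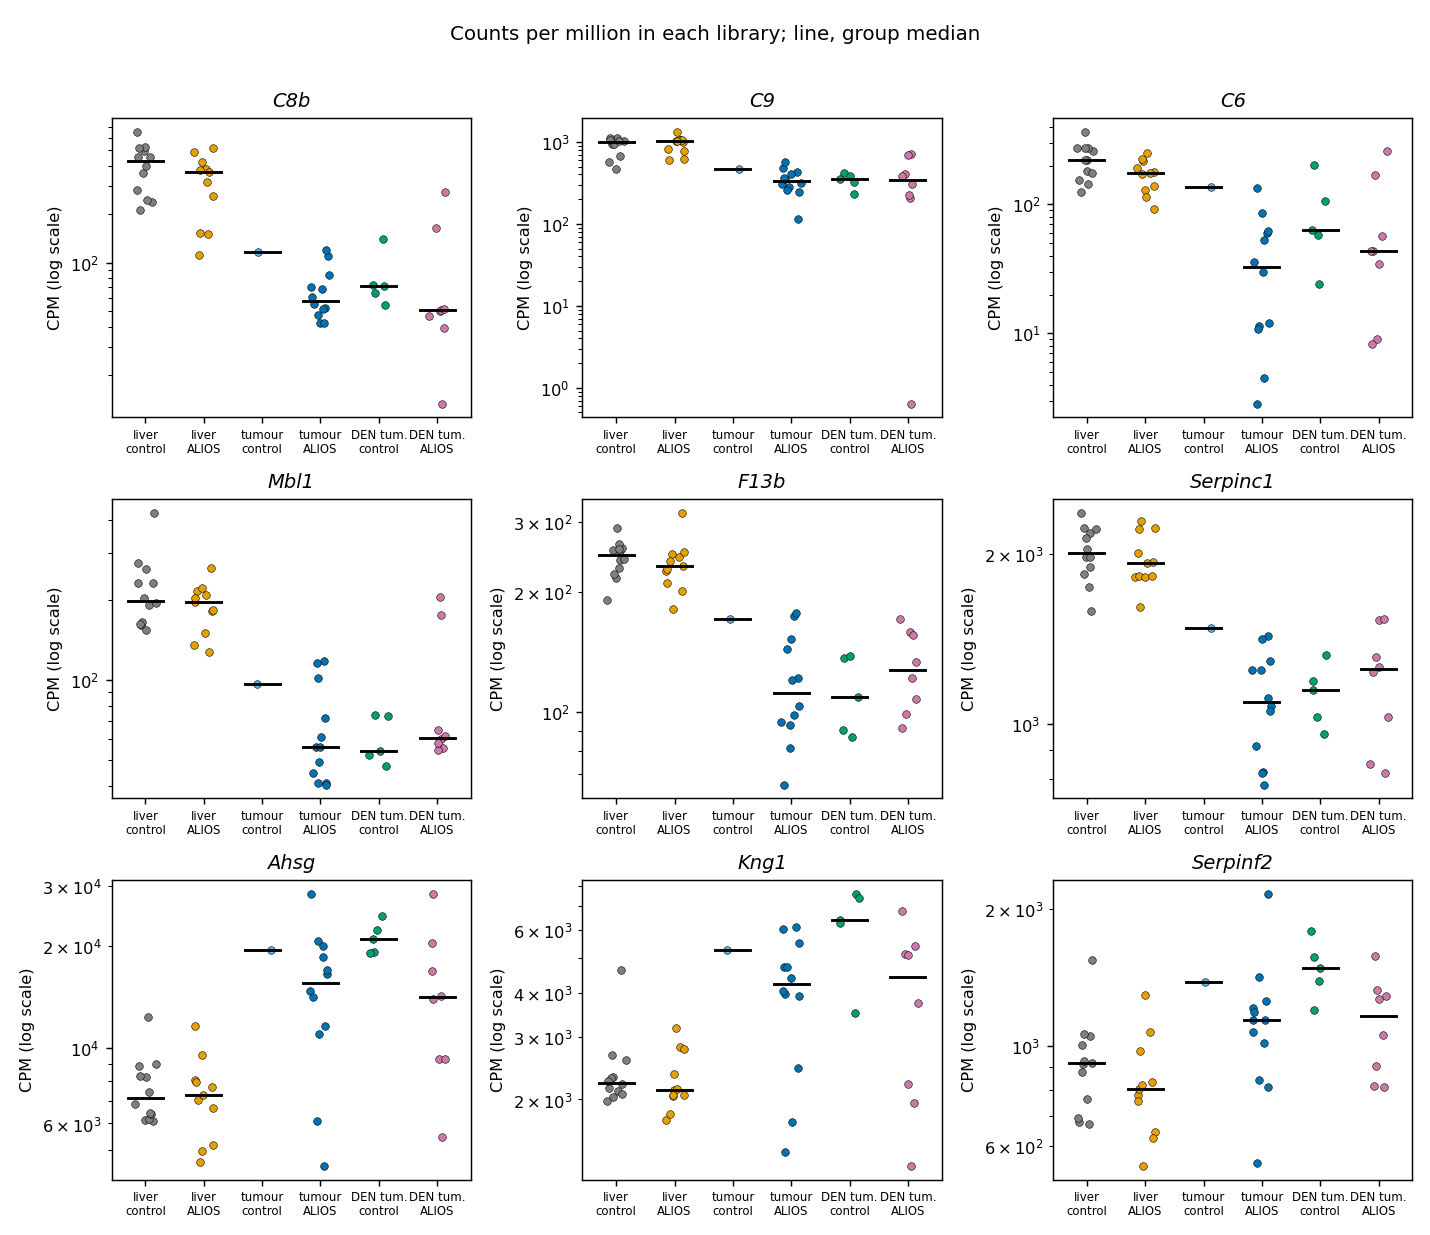
CPM (log axis) of 6 members that fell and 3 that rose in tumours, in each library of the 6 groups, with T1 left out and black lines at the group medians. At the median, tumours lie below livers for C8b, C9, C6, Mbl1, F13b and Serpinc1 and above them for Ahsg, Kng1 and Serpinf2, and the single lowest C9 value is T24.

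Of C3 and Cfb, the amplification arm, C3 was called lower in spontaneous tumours and Cfb in none of the 3 comparisons. C3 had 3224, 4293 and 7626 CPM in spontaneous tumours, and its log2 fold change of -0.43 ± 0.17 (edgeR adjusted p = 0.0393) passed the test, a call that was lost in 5 of 9 alternatives. In DEN tumours C3 had 3578, 4542 and 5959 CPM on the ALIOS diet (-0.41 ± 0.18, edgeR adjusted p = 0.068), which passed the test without T24 (-0.47 ± 0.18, edgeR adjusted p = 0.0355) or without N17 (-0.48 ± 0.18, edgeR adjusted p = 0.0359). It had 3871, 4569, 5545, 6086 and 7483 CPM on the control diet (-0.39 ± 0.34, edgeR adjusted p = 0.358). Cfb, factor B, had 173, 225 and 298 CPM in ALIOS livers, 134, 210.4 and 349.5 CPM in spontaneous tumours and 122, 252 and 291 CPM in DEN tumours, all overlapping. Its log2 fold change was 0.02 ± 0.15 (edgeR adjusted p = 0.91) in the spontaneous tumours and 0.15 ± 0.18 (edgeR adjusted p = 0.505) in DEN tumours of control fed mice. Cfb shares 2246 of its 2825 exon bases with Gm20547 on the same strand, so reads on those bases may be left out of its count. Among the regulators, Serping1 (C1 inhibitor) and Vtn (vitronectin, which blocks the membrane pore) fell in all 3. The log2 fold changes were -0.74, -0.67 and -0.52 for Serping1 and -0.66, -0.56 and -0.67 for Vtn. C4bp, the inhibitor of the C4b-containing convertase, had 618, 731 and 842 CPM in ALIOS livers and 383, 596 and 739 CPM in spontaneous tumours (-0.30 ± 0.09, edgeR adjusted p = 0.00858). That call was lost with library totals in place of TMM and with T1 included. C4bp was not called in DEN tumours, with 449, 704 and 771 CPM on the ALIOS diet and 642, 660.3, 754, 789 and 837 CPM on the control diet (log2 fold changes -0.08 ± 0.11 and -0.07 ± 0.15). Cfi rose in DEN tumours, with log2 fold changes of 0.49 ± 0.17 (edgeR adjusted p = 0.0238) on the ALIOS diet and 0.51 ± 0.13 (edgeR adjusted p = 0.00315) on the control diet, and in spontaneous tumours gave 0.34 ± 0.17 (edgeR adjusted p = 0.091). Without N17 the ALIOS value of DEN tumours was 0.43 ± 0.18 (edgeR adjusted p = 0.0538).

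Within coagulation the members differed. F13b, the carrier subunit of the factor that crosslinks fibrin, fell furthest and its tumours lay below the livers in all 3 comparisons. It had 181, 232 and 316 CPM in ALIOS livers, 65.9, 112 and 178 CPM in spontaneous tumours and 91.6, 128 and 171 CPM in DEN tumours, with log2 fold changes of -0.97 ± 0.14 (edgeR adjusted p = 6.78e-06) and -0.79 ± 0.13 (edgeR adjusted p = 5.9e-05). The control fed DEN tumours had 86.8, 90.2, 109, 136 and 138 CPM against 191, 247 and 289 CPM in livers (-1.07 ± 0.12, edgeR adjusted p = 6.49e-07). The vitamin K dependent factors F9 and F10 fell in all 3, between -0.54 and -0.47 for F9 and between -0.53 and -0.47 for F10. F7, which starts clotting with tissue factor, had 77.3, 108 and 161 CPM in ALIOS livers, 60.6, 98.5 and 127 CPM in spontaneous tumours (-0.25 ± 0.13, edgeR adjusted p = 0.105) and 67.8, 92.6 and 103 CPM in DEN tumours (-0.32 ± 0.12, edgeR adjusted p = 0.0369), a call that was lost without T24 (-0.28 ± 0.12, edgeR adjusted p = 0.0619). With 85.7, 97.02, 101, 110.5 and 115 CPM in DEN tumours of control fed mice, it gave -0.29 ± 0.12 (edgeR adjusted p = 0.0589), and -0.37 ± 0.14 (edgeR adjusted p = 0.0345) without T20. F2 and F5 were not called. F2 had 1289, 1498 and 1813 CPM in ALIOS livers, 1083, 1399 and 1695 CPM in spontaneous tumours, 1055, 1478 and 1734 CPM in DEN tumours and, on the control diet, 1249, 1536 and 1802 CPM in livers and 1405, 1565, 1579.5, 1669 and 1743 CPM in DEN tumours. All of these ranges overlapped. Its log2 fold changes were -0.16 ± 0.09, -0.06 ± 0.11 and 0.10 ± 0.10, with edgeR adjusted p of 0.119, 0.687 and 0.422.

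Of the contact system, which starts clotting on charged surfaces, Kng1 rose in all 3 comparisons. Kng1 (ENSMUSG00000022875.15, chr16:23057865-23082078, plus strand) encodes kininogen, the source of bradykinin. ALIOS livers had 1747, 2124 and 3182 CPM, spontaneous tumours 1427, 4221 and 6131 CPM and DEN tumours 1299, 4413 and 6787 CPM, with overlap. The log2 fold changes were 0.85 ± 0.20 (edgeR adjusted p = 0.00137) and 0.86 ± 0.25 (edgeR adjusted p = 0.00898). DEN tumours of control fed mice had 3513, 6277, 6406, 7369.5 and 7581 CPM against 1986, 2230.3 and 4643 CPM in livers, with 1.40 ± 0.19 (edgeR adjusted p = 6.23e-06), and the lowest tumour, T21, was the one inside the liver range. Reads of Kng1 and of its near copy Kng2 may be split by the counting. Kng2 rose too, with a log2 fold change of 0.89 ± 0.16 (edgeR adjusted p = 6.37e-05) in spontaneous tumours. F11 had 69.1, 126 and 185 CPM in ALIOS livers, 68.3, 122 and 151 CPM in spontaneous tumours, 44.1, 168 and 202 CPM in DEN tumours and 154, 161, 172, 202 and 205 CPM in DEN tumours of control fed mice, whose livers had 87.6, 169.9 and 218 CPM. Its log2 fold changes of -0.11 ± 0.17, 0.21 ± 0.26 and 0.22 ± 0.17 did not pass the test. F12 rose in DEN tumours of control fed mice (0.27 ± 0.10, edgeR adjusted p = 0.0386), and that call was lost in 6 of 11 alternatives, with an edgeR adjusted p of 0.0972, 0.0916, 0.0838 and 0.186 without T17, T18, T19 and T20. Without T24, F12 was also called higher on the ALIOS diet (0.18 ± 0.07, edgeR adjusted p = 0.0398). Klkb1 was called in DEN tumours of control fed mice only without T19 (-0.70 ± 0.27, edgeR adjusted p = 0.0384).

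The fibrinogen genes lie next to each other on chromosome 3. Fgg, the gamma chain, was called lower in spontaneous tumours (-0.43 ± 0.18, edgeR adjusted p = 0.0457), and the call was lost in 6 of 9 alternatives. Fgb had 2592, 3489.5 and 5463 CPM in those tumours, 889, 4043 and 6237 CPM in DEN tumours of ALIOS fed mice and 3477, 3523, 4152, 5656 and 5820.4 CPM in DEN tumours of control fed mice. Its log2 fold changes against liver were -0.11 ± 0.19, -0.02 ± 0.28 and -0.32 ± 0.36, with edgeR adjusted p of 0.647, 0.958 and 0.481. No fibrinogen gene was called in either DEN comparison. As a share of all counted reads, the 3 genes took 0.629% to 1.79% in ALIOS livers and 0.666% to 1.38% in spontaneous tumours.

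Of the 4 inhibitors of clotting, 3 fell in spontaneous tumours, 2 in DEN tumours of ALIOS fed mice and 3 in those of control fed mice, where the fourth rose. Serpinc1 (antithrombin, which inactivates thrombin and factor Xa) was lower in every tumour than in every liver of the same diet. It had 1610.5, 1929 and 2283 CPM in ALIOS livers, 781, 1096 and 1432 CPM in spontaneous tumours and 819.8, 1249 and 1533 CPM in DEN tumours, with log2 fold changes of -0.82 ± 0.11 (edgeR adjusted p = 2.47e-06) and -0.65 ± 0.13 (edgeR adjusted p = 0.000541). On the control diet livers had 1585, 2007 and 2361 CPM and DEN tumours 962, 1030.3, 1147, 1194 and 1327 CPM (-0.79 ± 0.12, edgeR adjusted p = 1.41e-05). Some of its exon bases are shared with Zbtb37 on the opposite strand. Proc, protein C, fell in all 3, with log2 fold changes of -0.41, -0.39 and -0.33, the last with an edgeR adjusted p of 0.0234, 0.0886 without T17 and 0.0809 without T18. The other 2 Proc calls were lost with library totals in place of TMM (edgeR adjusted p of 0.101 and 0.146). Pros1, the cofactor of protein C, fell in spontaneous tumours (-0.50 ± 0.12, edgeR adjusted p = 0.00115) and in DEN tumours of control fed mice (-0.58 ± 0.23, edgeR adjusted p = 0.0388). The latter call was lost without N5 (-0.46 ± 0.19, edgeR adjusted p = 0.0504), and without T19, T20 or T21 the edgeR adjusted p was 0.0578, 0.0806 and 0.0928. On the ALIOS diet Pros1 in DEN tumours gave -0.21 ± 0.10 (edgeR adjusted p = 0.1), and -0.28 ± 0.10 (edgeR adjusted p = 0.025) without T24. Serpind1, heparin cofactor II, went up in DEN tumours of control fed mice (0.37 ± 0.09, edgeR adjusted p = 0.00255) and was not called on the ALIOS diet.

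In fibrinolysis Plg and Cpb2 fell and Serpinf2 rose in all 3 comparisons. Plg, plasminogen, had 1650.1, 2293 and 2944 CPM in ALIOS livers, 1218, 1497 and 1951 CPM in spontaneous tumours (-0.59 ± 0.10, edgeR adjusted p = 5.09e-05) and 909.7, 1671 and 2084 CPM in DEN tumours (-0.44 ± 0.15, edgeR adjusted p = 0.0207). In control fed mice it had 2194, 2465 and 3519 CPM in livers and 1658, 1741, 1761, 1909.8 and 1969 CPM in DEN tumours, without overlap (-0.43 ± 0.12, edgeR adjusted p = 0.0057). Cpb2, a carboxypeptidase that slows fibrin breakdown, had log2 fold changes of -0.75, -0.55 and -0.59. The last had an edgeR adjusted p of 0.0264, but 0.0689 without T19 and 0.0514 without T20. Serpinf2, which encodes alpha 2-antiplasmin, the plasmin inhibitor, had 543, 804 and 1297 CPM in ALIOS livers, 552, 1140.3 and 2160.4 CPM in spontaneous tumours and 813, 1164 and 1577 CPM in DEN tumours. The ranges overlapped, and the log2 fold changes were 0.48 ± 0.18 (edgeR adjusted p = 0.0256) and 0.51 ± 0.17 (edgeR adjusted p = 0.0181). On the control diet it went from 674, 914 and 1548 CPM in livers to 1198, 1387, 1487, 1572 and 1794 CPM in DEN tumours (0.73 ± 0.16, edgeR adjusted p = 0.000916).

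Ahsg (ENSMUSG00000022868.5, chr16:22891277-22899449, plus strand) had the largest rise of the 43 in each of the 3 tumour comparisons. ALIOS livers had 4612, 7274 and 11605 CPM, spontaneous tumours 4499, 15573 and 28368 CPM and DEN tumours 5480.2, 14084 and 28393 CPM. Most tumours were above the livers' median, with overlap at the low end. The log2 fold changes were 1.06 ± 0.24 (edgeR adjusted p = 0.000726) and 1.07 ± 0.26 (edgeR adjusted p = 0.00241). All 5 DEN tumours of control fed mice, with 18975, 19224, 20855, 22255 and 24388 CPM, were above all 12 livers, with 6113, 7142 and 12315 CPM, at 1.51 ± 0.16 (edgeR adjusted p = 3.63e-07). Ahsg and Kng1 lie near each other on chromosome 16 and, like Fetub, Hrg and Kng2, encode plasma proteins of the cystatin superfamily. Kng2 rose in the other 2 comparisons as well, with 0.70 ± 0.20 (edgeR adjusted p = 0.0071) and 1.29 ± 0.16 (edgeR adjusted p = 1.6e-06). In spontaneous tumours Fetub gave -0.43 ± 0.19 (edgeR adjusted p = 0.0627) and Hrg -0.34 ± 0.14 (edgeR adjusted p = 0.0432), and Hrg rose in DEN tumours of control fed mice (0.42 ± 0.13, edgeR adjusted p = 0.0112). Masp1, on the same chromosome beyond Kng1, fell in each of the 3.

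Non-overlap of groups was rarer than a call. In spontaneous tumours 6 of 43 members lay wholly below the livers, C1ra, Mbl1, Mbl2, C9, F13b and Serpinc1, and none wholly above, where 3.52% and 1.21% of all genes tested did so. In DEN tumours of ALIOS fed mice it was 3 below, Masp1, F13b and Serpinc1, with 5.7% of genes below and 3.67% above. In those of control fed mice 12 members lay wholly below and Ahsg wholly above, against 11.6% and 10.9% of genes. No member separated the 2 diets in liver, where 0.0729% of genes lay wholly above and 0.00729% wholly below.

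In tumours the C1q genes did not keep the level of ALIOS livers. C1qa had 9.75, 34.3 and 83.6 CPM in spontaneous tumours, C1qb 11.8, 31.8 and 75.3 CPM and C1qc 8.88, 29.8 and 56.5 CPM. All 3 fell against ALIOS livers, with log2 fold changes of -0.86 ± 0.32 (edgeR adjusted p = 0.0276) for C1qa, -0.81 ± 0.31 (edgeR adjusted p = 0.0307) for C1qb and -0.88 ± 0.31 (edgeR adjusted p = 0.0194) for C1qc. The calls were lost with library totals in place of TMM. That of C1qb was also lost with no filter on low counts and without N17 (-0.75 ± 0.32, edgeR adjusted p = 0.0537 without N17). Macrophage markers fell in the same tumours, 8 of 12 with 1 higher, and summed to 359 to 1198 CPM. Their sum was 563 to 1435 CPM in DEN tumours of ALIOS fed mice, where 2 fell and 1 rose, and 512 to 1148 CPM in those of control fed mice, where 5 fell and 2 rose. In DEN tumours of ALIOS fed mice the values were 8.95, 38.2 and 157 CPM for C1qa, 10.1, 35.8 and 144 CPM for C1qb and 8.15, 32.9 and 101 CPM for C1qc, each highest in T24. None was called with T24. Without it C1qa gave -0.93 ± 0.36 (edgeR adjusted p = 0.039), C1qb -0.86 ± 0.36 (edgeR adjusted p = 0.0512) and C1qc -0.87 ± 0.36 (edgeR adjusted p = 0.0483). The 5 DEN tumours of control fed mice had 17.4, 20.4, 22.9, 36.4 and 39.5 CPM of C1qa, 16.2, 21.9, 23.2, 38.6 and 38.99 CPM of C1qb and 12.5, 17.8, 19.9, 28.7 and 35.96 CPM of C1qc, and none of these was called against control livers (edgeR adjusted p of 0.0739, 0.423 and 0.118). Without T17, C1qa (-0.57 ± 0.22, edgeR adjusted p = 0.0384) and C1qc (-0.66 ± 0.23, edgeR adjusted p = 0.0272) were called lower, and C1qa also without T19 (-0.61 ± 0.21, edgeR adjusted p = 0.0206).

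Other hepatocyte genes moved with the members. Of 11 hepatocyte marker genes 8 fell in spontaneous tumours, 6 in DEN tumours of ALIOS fed mice and 7 in those of control fed mice, with median log2 fold changes of -0.73, -0.54 and -0.86. Alb and Apoa1 rose in each. None of the 11 was at 0 in any group, and their sum, mostly Alb, was 90974 to 152886 CPM in ALIOS livers and 87919 to 236289.9 CPM in spontaneous tumours. The part of a general change of hepatocyte transcripts in the members' fall was not tested. With library totals in place of TMM, the median log2 fold change of all genes in spontaneous tumours was 0.19 in place of 0.01, and 18 members fell and 5 rose in spontaneous tumours. In DEN tumours of ALIOS fed mice 14 members fell and 4 rose with these totals, and C1ra, C2, F7 and Proc were no longer called.

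The next comparisons asked whether tumours differed by carcinogen or by diet. DEN tumours against spontaneous tumours of ALIOS fed mice gave no called member, 0 of 14845 genes being called by edgeR, and no member had an unadjusted p under 0.05. DESeq2 called no member either. The median log2 difference over hepatocyte-made members was 0.04. The widest gap was in C6, 0.88 ± 0.67, while Mbl1 gave 0.46 ± 0.30 and Serpinc1 0.12 ± 0.15. A missed threshold does not show that the tumours were alike. Diet in DEN tumours gave no called member, with 0.0134% of 14944 genes called lower and 0% higher. One member, C2, the protease cleaved with C4, had an unadjusted p under 0.05. It had 41.1, 50.5 and 67.8 CPM in the 8 ALIOS tumours and 68.2, 76.7, 80.8, 83.7 and 88.8 CPM in the 5 control tumours, and was the 1 member whose groups did not overlap, as 0.355% of genes lay wholly below. Its log2 fold change was -0.62 ± 0.12 (edgeR adjusted p = 0.203), while DESeq2 gave an adjusted p of 0.00175. Reads of C2 may include some of Zbtb12 on the opposite strand, which shares exon bases. The C1q genes gave 0.88 ± 0.60, 0.76 ± 0.58 and 0.75 ± 0.55, with larger standard errors than in liver. Without T24 they were 0.35 ± 0.48 for C1qa, 0.25 ± 0.46 for C1qb and 0.36 ± 0.48 for C1qc.

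A direct test of whether the DEN tumour effect differed between diets gave no called member, where 2.27% of 15606 genes were called, 1.04% higher and 1.23% lower. The smallest p was that of Mbl1, whose log2 fold change in DEN tumours was higher on the ALIOS than on the control diet by 0.84 ± 0.35 (edgeR adjusted p = 0.212). The same difference was -0.43 ± 0.33 (edgeR adjusted p = 0.543) for Ahsg and -0.54 ± 0.34 (edgeR adjusted p = 0.442) for Kng1. The median over hepatocyte-made members was -0.01. A missed threshold does not show that the effect was the same on both diets.

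The 1 spontaneous tumour of a control fed mouse, T7, has no replicate and entered no test. Of the 40 hepatocyte-made members 30 lay within the range of the 12 spontaneous tumours of ALIOS fed mice, 10 above and none below, and all 3 C1q genes lay within. Ahsg was at 19423 CPM and Kng1 at 5260 CPM, above every control liver. C8b was at 116 CPM and Mbl1 at 96.5 CPM, below every control liver, and C6, at 137 CPM, lay within the livers' range.

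Of the 40 hepatocyte-made members, 27 had a larger SD of log2 CPM in spontaneous tumours of ALIOS fed mice than in control livers, and 35 in DEN tumours of ALIOS fed mice, a group that holds T24. C3 and the fibrinogen genes went the other way in spontaneous tumours, C3 with an SD of 0.381 against 0.713. N5 was the highest control liver for each of these genes. Against the ALIOS livers, C3 (SD 0.438), Fgb (0.49) and Fgg (0.494) were also narrower in those tumours, while Fga was not (0.487 against 0.477). The median SD of log2 CPM over hepatocyte-made members was 0.319 in control livers, 0.258 in ALIOS livers, 0.388 in spontaneous tumours, 0.492 in DEN tumours of ALIOS fed mice and 0.262 in those of control fed mice. These SDs are given without a test. In spontaneous tumours C6 had an SD of 1.74, against 0.445 in ALIOS livers, and Klkb1 1.26 against 0.218. Klkb1 had 3.30, 9.997 and 48.02 CPM in those tumours and 12.3, 17.3 and 19.2 CPM in ALIOS livers, so single tumours lay on both sides of the livers. Its log2 fold change was 0.06 ± 0.36 (edgeR adjusted p = 0.909). F2 was among the steadiest, with an SD of 0.129 in control livers and 0.179 in spontaneous tumours, and F12 had the smallest SD in both liver groups, 0.104 and 0.135.

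A second list held 36 further genes of the same pathways, among them receptors, soluble regulators and plasminogen activators. On the ALIOS diet 4 of its 31 tested genes rose in liver and none fell, where 6.73% of all genes rose and 4.51% fell. Cfp, properdin, which stabilises the C3 convertase and is made by leukocytes, had 13.4, 17.6 and 24.6 CPM in control and 16.4, 26.5 and 62.7 CPM in ALIOS livers (0.73 ± 0.17, edgeR adjusted p = 0.0114). Vsig4, the complement receptor of Kupffer cells, had 8.000, 22.4 and 30.8 CPM and 20.7, 34.1 and 71.8 CPM (0.73 ± 0.19, edgeR adjusted p = 0.0183), and as with C1q the groups overlapped. In spontaneous tumours 6 of 33 rose and 12 fell, where 26.9% of all genes rose and 25.9% fell. Plat, tissue plasminogen activator, had 0.0394, 0.223 and 0.957 CPM in ALIOS livers and 1.14, 2.62 and 12.3 CPM in spontaneous tumours (3.58 ± 0.47, edgeR adjusted p = 1.79e-06), close to nothing in liver. Plg, the substrate of this activator, fell in the same tumours. Proz (protein Z, -0.62 ± 0.09, edgeR adjusted p = 5.93e-06) and Habp2 (-0.57 ± 0.09, edgeR adjusted p = 1.19e-05), a plasma serine protease, fell.

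In DEN tumours of ALIOS fed mice 8 of 33 rose and 6 fell, near the 27.7% and 19.8% of all genes, and in those of control fed mice 11 of 35 rose and 8 fell, near the 27.3% and 24.4% of all genes. Plat rose to a median of 6.35 CPM in the former, with T24 far above the rest at 471 CPM, and to 2.75 CPM in the latter (4.49 ± 0.41, edgeR adjusted p = 3.45e-08). Cd59a, which blocks the last step of the membrane attack complex at the cell surface, fell in both, with -0.82 ± 0.15 (edgeR adjusted p = 0.000265) and -0.85 ± 0.13 (edgeR adjusted p = 2.08e-05). Proz fell on the ALIOS diet (-0.59 ± 0.13, edgeR adjusted p = 0.000751). Fcna, a ficolin that starts the lectin pathway and is made by macrophages, fell on the control diet, with 23.3, 36.5 and 46.9 CPM in livers and 2.37, 9.04 and 13.99 CPM in DEN tumours (-2.12 ± 0.29, edgeR adjusted p = 6.24e-06).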

How the data were processed

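RNA was taken from 50 mouse liver and liver tumour samples and sequenced as stranded, paired-end mRNA libraries. The authors deposited 1 table of unnormalized read counts, with a row for each gene. The authors mapped reads to mm10 with STAR and counted those on exons of Gencode genes with HTSeq, and neither the tool versions nor the strand option of the counting are given in the sources used here. Genes were matched by the symbol column of the table. Positions and exon lengths were taken from Gencode M21, and promoters from RefSeq GRCm38.p6, the same build as mm10. The authors counted reads on an earlier Gencode release, so exon overlaps and lengths in the counting may differ from those given here. A promoter entry was matched for 33 of the 43 members.

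The counts were tested with the quasi-likelihood test of edgeR 4.0.16 in R 4.3.3 after the filterByExpr filter (minimum count 10) and TMM scaling. Each comparison was fitted with the groups it compares, and p-values were adjusted by Benjamini-Hochberg over all genes tested and called under 0.05. Standard errors were obtained from the F statistic. CPM values use TMM factors over the 49 libraries without T1, and log2 CPM adds a prior count of 2. Depth ran from 23798251 to 45751398 counted reads. The test script was checked on simulated counts with the same spread for every gene. Of 100 genes given a log2 change of 1, edgeR recovered 69% in spontaneous tumours against ALIOS livers. It recovered 38% in DEN tumours against control livers and 11% in the difference of the DEN effect between diets. No pair of libraries within a group agreed within sampling noise.

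The 43 members, the role groups, marker lists and second pathway list were chosen with earlier results of these data known. Values by library are given for genes fixed per role and for the 3 called members with the largest change in each direction of a comparison, and for the second list the 2 in each direction. A result that is withheld is not reported here. Alternatives were other size factors, no TMM, no filter, DESeq2 1.42.0, 1 fit over 5 groups, T1 included, and libraries left out. Correlations of C1q with macrophage markers are given without a p.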

Additional observations from a re-analysis of the deposited data

Results flagged for a closer look

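In 13 of the 86 sets of values searched (43 members in the 2 groups of 4 to 10 libraries, the DEN tumours of each diet), 1 library lay farther from its group than the 95% critical value of Dixon's test allows, where chance gives about 4.3. All 13 were the lowest value of the group, and 10 of them belonged to T24, a DEN tumour of an ALIOS fed mouse.

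Among the terminal complement genes, C9 was at 0.639 CPM in T24 where the other 7 tumours had 205 to 709.6, C8a was at 16.3 CPM where the others had 316 to 780.5, and Hc was at 350.1 CPM where the others had 754.5 to 1342. The fibrinogen genes were low in the same library, Fga at 790.1 CPM against 2829 to 6180 in the others, Fgb at 888.9 CPM against 3312 to 6237, and Fgg at 396 CPM against 2410.5 to 4844. F9 was at 61.8 CPM against 160.6 to 245.5, and F12 at 118.8 CPM against 230.5 to 294. Of the fibrinolysis genes, Plg was at 909.7 CPM against 1518 to 2084 and Cpb2 at 113.6 CPM against 258 to 407. T24 also had the highest C1qa, C1qb and C1qc of its group. The sum of 12 macrophage markers, in contrast, was highest in T26, at 1435 CPM where the group median was 786.3. Markers of other cell types stood apart in T24. T24 had the lowest sum of 11 hepatocyte markers, 84725 CPM where the group median was 181365, the highest sum of 8 stellate cell markers, 1248.5 CPM where the median was 218.6, and the highest sum of 5 megakaryocyte markers, 30.8 CPM where the median was 2.65. It also had the lowest sum of 8 endothelial markers, 113 CPM where the median was 226. Their part in the low values was not tested.

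In the DEN tumours of control fed mice, C1ra was at 133 CPM in T20 where the other 4 had 155 to 161. T21 had F12 at 190.6 CPM against 298 to 318, and Kng1 at 3513 CPM against 6277 to 7581.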

How the results depend on the processing

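No called member changed sign under any alternative, and none of the counts of called members other than those below moved by over 1.5 times. With 1 fit over all 5 groups, 0 members were higher on the ALIOS diet in liver (C1qa 0.82, C1qb 0.89 and C1qc 0.79 on the log2 scale, edgeR adjusted p of 0.157, 0.11 and 0.154). In spontaneous tumours 5 members were higher with library totals without TMM. With T1 included 0 were higher and 15 lower, and the edgeR adjusted p was 0.141 for Ahsg, 0.218 for Kng1 and 0.13 for Serpinf2. DESeq2 called 1 member, C2, lower by diet in DEN tumours. Leaving out single DEN tumours of control fed mice left 18 to 20 members lower and 5 to 6 higher than control livers. Over all genes, library totals without TMM gave 5526 higher and 2059 lower in spontaneous tumours in place of 3812 and 3675, 5159 and 1822 in place of 3995 and 2856 in DEN tumours of ALIOS fed mice, and 1238 and 184 in place of 923 and 619 for diet in liver. The cause was not tested. The alternatives that leave out control liver N5, ALIOS liver N17 or each liver in turn were chosen after seeing the data. No paired analysis was possible because the groups share no replicate numbers and the labels tie no tumour to a liver. Depth did not limit the members, whose group medians lay well above the filter, whereas the 5 DEN tumours of control fed mice and the lone T7 limit what could be compared.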
